A study of Mus musculus with 15 samples.

Results

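Gel/IL-12 was compared with Gel to ask what interleukin-12 changed in the transcriptome of irradiated bone marrow stromal cells when it was loaded into an alginate hydrogel that held no Laponite. The comparison used 6 of the 15 RNA-seq libraries, 3 of Gel and 3 of Gel/IL-12, and these were chosen by their treatment labels and not by any measured value. All libraries came from bone marrow mesenchymal stem cells (BM-MSCs) of C57BL/6 mice, which were bought as primary cells, expanded in culture, irradiated with 5 Gy and then kept with the material for 48 h. Gel was alginate grafted with an RGD peptide, a short adhesion sequence that integrins bind, and Gel/IL-12 was the same gel with IL-12 mixed in. Gel/Laponite held the nanoclay Laponite without IL-12, Gel/Laponite@IL-12 held the nanoclay and IL-12 together, and IR-Con was the irradiated culture without gel. The cells of every group were therefore irradiated, and no unirradiated culture entered the comparison. The labels do not say that the 3 libraries of a group came from separate cultures, and the methods refer to distinct experiments in general without naming the RNA-seq libraries, so the p-values measure the spread between these libraries, which may be technical. IL-12 release differs between gels with and without Laponite by design, and the amount of IL-12 that reached the cells was not measured in these libraries.

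The Gel libraries held 15202745 to 16524896 counts and the Gel/IL-12 libraries 16340316 to 17818982. The biological coefficient of variation was 3.51% between the Gel libraries and 3.56% between the Gel/IL-12 libraries, against 16.9% in IR-Con, which was therefore left out of the fit and is given as a background level only. The 12 gel libraries entered 1 edgeR quasi-likelihood fit, in which the Laponite gels helped to estimate the spread. Genes with a Benjamini-Hochberg adjusted p under 0.05 over all 15188 genes tested are called differentially expressed genes (DEGs). Levels are given as CPM (counts scaled to a common library size, with TMM factors), listed for replicates 1, 2 and 3, and fold changes are log2 values of Gel/IL-12 over Gel. All 16 markers of mesenchymal stem cells were measured, among them Pdgfra, Ly6a, Itgb1 and Cd44, and their summed level was 4006 to 4053 CPM in Gel and 4045 to 4076 CPM in Gel/IL-12. Markers of blood and endothelial cells were near background: the macrophage and neutrophil markers that could be tested (4 of 20) summed to 14.03 to 16.09 CPM in Gel and 13.5 to 15.9 CPM in Gel/IL-12, the T, NK and B cell markers (1 of 18) to 7.11 to 9.0 and 6.99 to 8.92 CPM, and the endothelial and erythroid markers (6 of 15) to 12.7 to 16.1 and 12.4 to 13.2 CPM. Adgre1, Cd3e and Hbb-bs had 0 counts in all 6 libraries.

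IL-12 is a heterodimeric cytokine best known for acting on T and NK cells, where its receptor chains signal through JAK2, TYK2 and STAT4 and raise interferon gamma. Stromal cells of the bone marrow hold hematopoietic stem cells in place with Cxcl12 and Kitl, and under inflammatory cytokines they secrete acute-phase proteins and chemokines that call in neutrophils and monocytes. Low oxygen stabilizes the HIF transcription factors, which bind a short core motif in the promoters of glycolytic and mitophagy genes. Interferons act on most cells through a complex of STAT proteins and IRF9, which binds the interferon-stimulated response element (ISRE).

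The IL-12 receptor chains, Stat4 and Ifng were sparse in these cells, while more widely used components such as Stat3 were not. Il12rb1, the receptor chain that IL-12 shares with IL-23, was measured at 4.03, 3.75 and 2.37 CPM in Gel and 3.94, 3.72 and 2.81 CPM in Gel/IL-12, so the groups overlapped (log2 fold change 0.04, SE 0.20, adjusted p 0.974). Il12rb2, the chain that gives the receptor its STAT4 docking sites, did not reach the count filter, with 23 counts over the 3 Gel libraries and 18 over the 3 Gel/IL-12 libraries. Stat4 had 1 count in each group, Ifng 0 and 2 counts, and Tbx21, the transcription factor of T helper 1 cells, 1 and 2 counts. Of the 26 genes in the list of IL-12 receptors, ligands and JAK/STAT components, 15 could be tested and 0 passed in either direction. Without overlap between the libraries, 1 of the 15 was higher (Jak1) and 2 were lower (Il18 and Stat3), where 16.8% of all genes did not overlap. Il18 had a mean of 1.07 CPM in Gel and 0.489 CPM in Gel/IL-12 (log2 fold change -1.12, adjusted p 0.207). At this depth no difference in these genes passed the threshold.

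IL-12 in the Laponite-free gel went with small differences in a limited number of genes, led by acute-phase genes and chemokines, glycolytic and other hypoxia genes and ribosomal protein genes, which were higher, and by a smaller set of interferon-induced genes, which were lower. There were 274 DEGs, 1.8% of the genes tested, of which 200 were higher in Gel/IL-12 (1.32%) and 74 were lower (0.487%), and 1698 genes had an unadjusted p under 0.05. The median absolute log2 fold change of the DEGs was 0.139, 18 of them differed by more than 1.2-fold, and 3 by more than 1.5-fold. These 3 were the acute-phase gene Saa3, which was 1.5-fold higher, and Slc25a18 and Mfsd4b3, whose means stayed under 2 CPM and which were lower by log2 changes of -2.10 and -1.61. The 3 libraries of each group did not overlap for 2555 genes (16.8%), and for 270 of the 274 DEGs. The exceptions were Trim59, Flnc, Ccl9 and Gda. The DEGs were well expressed, since 271 of them reached 10 CPM, and 260 were protein coding. Their median level was 258 CPM for those higher and 172 CPM for those lower, against 21.9 CPM for all genes tested. The 1.8% set beside the gene lists is a share of all genes tested and was not matched for level. In bulk RNA, a change in the share of a kind of cell and a change in RNA per cell cannot be told apart.

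**Figure D1:**
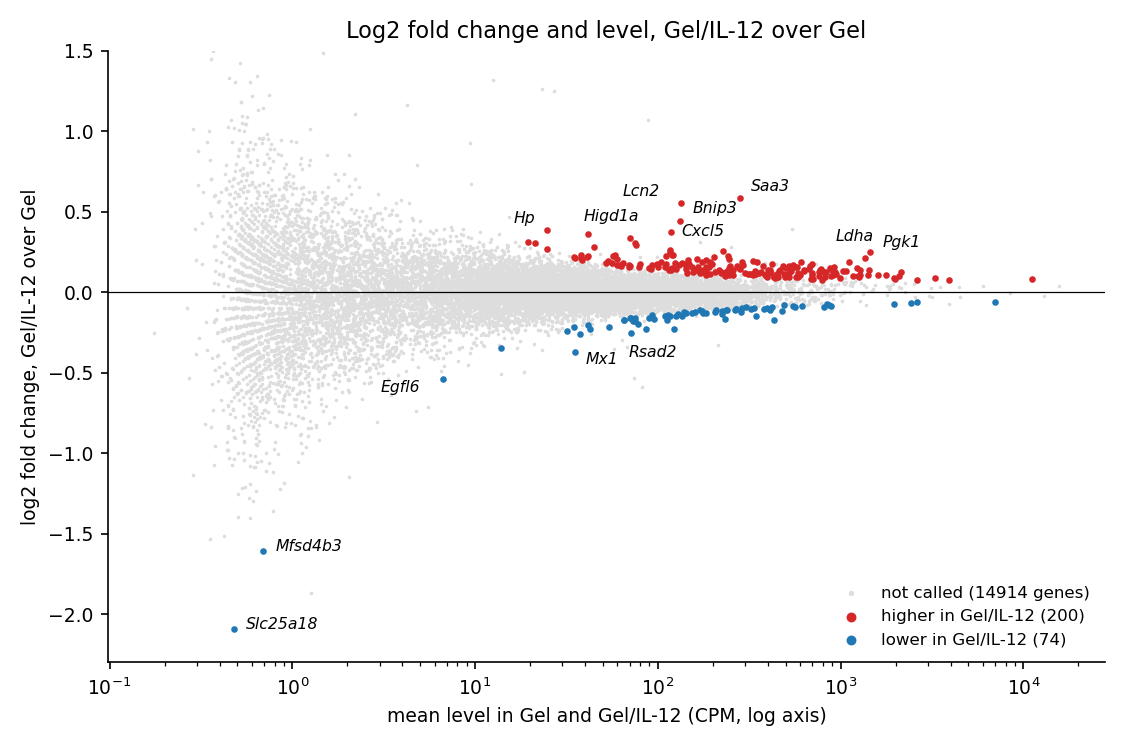
Log2 fold change of Gel/IL-12 over Gel (vertical axis) against the mean level of both groups in CPM (horizontal log axis), with grey points for genes that did not pass, red points for the 200 DEGs higher and blue points for the 74 lower; 7 genes, none of them DEGs, lie outside the drawn range. The DEGs form a narrow band around 0 at high levels, with Saa3, Lcn2 and Bnip3 at its top and the sparse Slc25a18 and Mfsd4b3 alone at the bottom left.

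The count depended on which libraries were fitted. A fit of the 6 libraries alone gave 433 DEGs, and a fit of all 15 libraries, which adds the more variable IR-Con cultures, gave 2, Lcn2 and Saa3, with 432 genes at an unadjusted p under 0.05. Without Gel/IL-12 replicate 1 there were 135 DEGs, without Gel replicate 3 147, without Gel/IL-12 replicate 2 165, and without Gel replicate 2 171.

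Acute-phase genes rose, and their list had the highest median of those with at least 8 tested members. Of 15 acute-phase genes tested, 6 rose with IL-12 and 0 fell (40.0%, against 1.8% of all genes). All 15 had a fold change above 0, and their median log2 fold change was 0.23 against -5.9e-05 over all genes. Saa3 (chr7:46711998-46715700, minus strand, GRCm38 with GENCODE M21 genes) encodes serum amyloid A3 and was at 228, 225 and 225 CPM in Gel and at 357, 349 and 313 CPM in Gel/IL-12. The 2 groups did not overlap, and the difference was 0.59 log2 units (SE 0.0635, adjusted p 0.00177). Lcn2 (chr2:32384633-32388252, minus strand) encodes lipocalin 2, which withholds iron from bacteria by binding their siderophores. It was at 104, 109 and 112 CPM in Gel and 165, 161 and 150 CPM in Gel/IL-12, a difference of 0.56 (SE 0.0358, adjusted p 9.53e-23), the smallest adjusted p of the comparison. In IR-Con the mean was 0.945 CPM for Saa3 and 0.269 CPM for Lcn2, so both genes were far above the ungelled cells in Gel already.

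Hp, whose product haptoglobin binds free hemoglobin, was at 19.7, 22.6 and 21.9 CPM in Gel and 28.2, 29.5 and 26.2 CPM in Gel/IL-12 (log2 fold change 0.39, adjusted p 0.000447). Lbp encodes the protein that presents bacterial lipopolysaccharide to CD14, and it rose by 0.21 (adjusted p 6.81e-06) from 155, 152 and 148 CPM to 181, 177 and 166 CPM. Ptx3, a soluble pattern recognition molecule, rose by 0.17 (adjusted p 7.47e-05) and the metal importer Slc39a14 by 0.11 (adjusted p 0.0221). Steap4, a metalloreductase, was at 72.2, 83.6 and 70.2 CPM in Gel and 84.0, 81.8 and 81.2 CPM in Gel/IL-12, a difference of 0.13 that missed the threshold (adjusted p 0.165). C3, the central complement component, rose by 0.13 (adjusted p 2.28e-06) and was the only 1 of 14 complement genes to pass (7.14%, against 1.8% of all genes).

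Chemokines rose with the acute-phase genes. Of 13 chemokines tested, 7 were higher and 0 lower (53.8%, against 1.8% of all genes), with a median log2 fold change of 0.13. Cxcl5, a neutrophil attractant, was at 105, 103 and 99.9 CPM in Gel and 135, 140 and 125 CPM in Gel/IL-12, a difference of 0.38 (SE 0.0396, adjusted p 8.77e-10). Cxcl1, another ligand of the neutrophil receptor CXCR2, was at 65.1, 69.9 and 66.6 CPM in Gel and 86.2, 84.4 and 79.0 CPM in Gel/IL-12 (0.31, adjusted p 2.1e-07). The Gel/IL-12 libraries were the higher ones throughout for both genes. The monocyte attractants Ccl2 and Ccl7 rose by 0.15 (adjusted p 0.000852) and 0.13 (adjusted p 0.00778), Ccl5 by 0.14 (adjusted p 0.0102) and Ccl9 by 0.30 (adjusted p 0.029), the last with overlapping libraries. Cxcl12, which retains hematopoietic stem cells in the marrow, was at 912, 910 and 918 CPM in Gel and 995, 991 and 971 CPM in Gel/IL-12 (0.11, SE 0.0211, adjusted p 0.000274), with a mean of 430.2 CPM in IR-Con. All 7 had a lower mean in IR-Con than in Gel. Leaving out Gel/IL-12 replicate 1 gave 4 chemokines and leaving out Gel/IL-12 replicate 2 gave 3, while 5 to 7 acute-phase genes passed without each library in turn.

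The Cxcl1 promoter is shown because it was among the chemokines that rose and holds the NF-kB core, searched for on both strands as GGG and TTCC with 3 bases of any kind between them. The stretch lies at chr5:90891144-90891196 on the plus strand of GRCm38.p6, 101 to 49 bases before the RefSeq start, and capitals mark its 3 matches, which overlap in part.
Cxcl1: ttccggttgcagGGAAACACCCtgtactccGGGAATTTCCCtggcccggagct
The motif was found in 2 of the 3 chemokines that rose and had a window in the table, and in 2 of the 4 that did not pass, against 6.07% of all genes tested with a window. Of 26 cytokines and feedback inhibitors among the other NF-kB targets 0 rose and 1 fell (3.85%, against 1.8% of all genes), Il1rl1, the receptor of IL-33, from 562, 559 and 575 to 534, 533 and 534 CPM (-0.08, adjusted p 0.0369). Of 22 STAT3 targets 2 rose (9.09%, against 1.8% of all genes), the transcription factor gene Cebpd by 0.18 (adjusted p 0.00713) and the protease inhibitor gene Timp1 by 0.14 (adjusted p 0.000692).

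**Figure D2:**
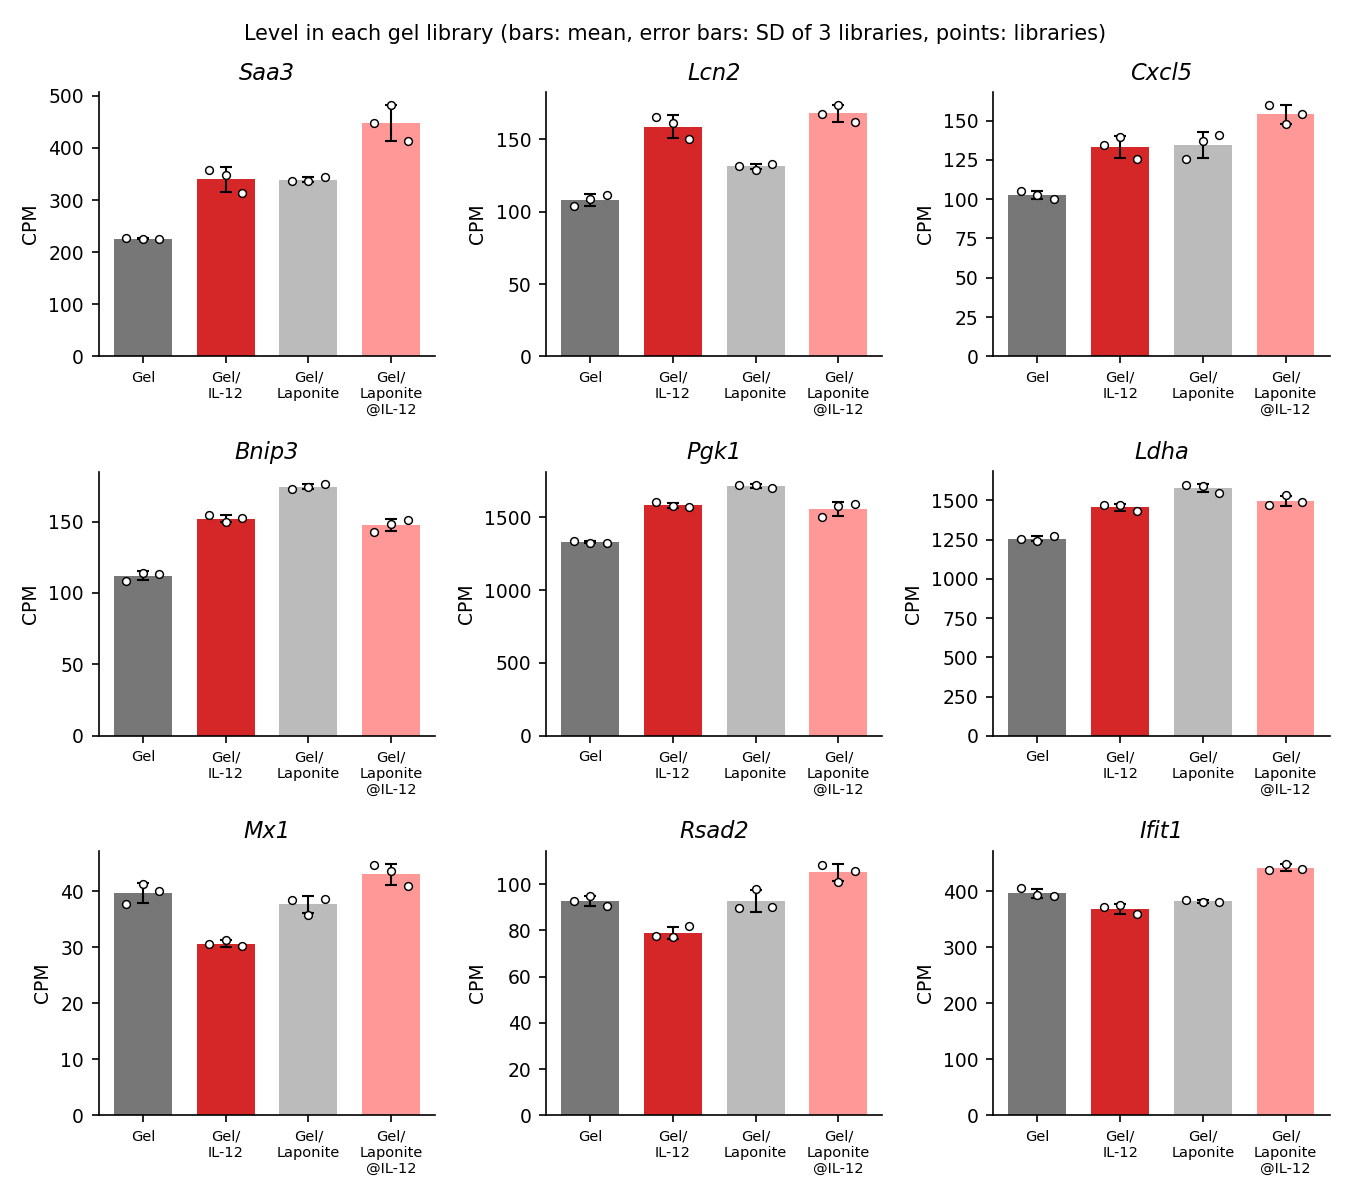
Level in CPM (vertical axis, from 0) of 9 genes in the 4 gels (horizontal axis), with a bar at the mean of 3 libraries, an error bar of 1 SD and a point for each library. For Saa3, Lcn2 and Cxcl5 the Gel/IL-12 points lie above all Gel points, for Bnip3 and Pgk1 they lie between Gel and Gel/Laponite, and for Mx1 they lie below those of all other gels.

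Genes of hypoxia and glycolysis were numerous among the DEGs. Of 36 such genes tested, 20 rose in Gel/IL-12 and 0 fell, 55.6% against 1.8% of all genes, and the median log2 fold change of the list was 0.16. The 20 genes rose by 1.06-fold to 1.36-fold. Bnip3 (chr7:138890836-138909519, minus strand), a receptor on the outer mitochondrial membrane that recruits the mitophagy machinery, was at 109, 114 and 114 CPM in Gel and 154, 149 and 152 CPM in Gel/IL-12. The groups were well apart, with a log2 fold change of 0.44 (SE 0.0340, adjusted p 2.84e-18). Pgk1, the phosphoglycerate kinase of glycolysis, was at 1336, 1325 and 1326 CPM in Gel and 1602, 1576 and 1570 CPM in Gel/IL-12 (0.25, SE 0.0197, adjusted p 2.94e-18). Ldha, which reduces pyruvate to lactate, was at 1251, 1242 and 1272 CPM in Gel and 1469, 1470 and 1429 CPM in Gel/IL-12 (0.21, adjusted p 3.21e-14).

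Other steps of glycolysis moved the same way. The triosephosphate isomerase gene Tpi1 rose by 0.19 (adjusted p 1.52e-10), the phosphofructokinase gene Pfkl by 0.19 (adjusted p 2.72e-07), the aldolase gene Aldoa by 0.14 (adjusted p 7.33e-07) and the glucose transporter gene Slc2a1 by 0.16 (adjusted p 0.00103). Pdk1, the pyruvate dehydrogenase kinase that keeps pyruvate out of the citric acid cycle, rose by 0.25 (adjusted p 4.57e-07). Among mitochondrial genes known from hypoxia, Higd1a was at 36.2, 35.1 and 38.0 CPM in Gel and 45.5, 47.8 and 47.0 CPM in Gel/IL-12 (0.36, adjusted p 4.48e-06). Ndufa4l2 rose by 0.33 (adjusted p 9.68e-06), the adenylate kinase gene Ak4 by 0.28 (adjusted p 0.000406) and Fam162a by 0.26 (adjusted p 2.1e-07). Egln1, the prolyl hydroxylase that marks HIF for degradation and is itself a HIF target, rose by 0.18 (adjusted p 0.000362). The secreted inhibitor of lipoprotein lipase Angptl4 rose by 0.29 (adjusted p 1.93e-06) and the apelin gene Apln by 0.31 (adjusted p 0.0327). Vegfa, the angiogenic HIF target, did not pass (0.06, adjusted p 0.42), nor did Gapdh, whose libraries ranged from 38.3 to 49.0 CPM in Gel and from 45.9 to 60.4 CPM in Gel/IL-12 (0.24, adjusted p 0.673). Gapdh has processed pseudogenes, and 74.9% of the 50-base windows of its transcripts occur in no other gene. The share was lower for Pgk1 (46.1%) and Bnip3 (52.8%), which passed. Reads of all these genes can be split by the counting, and the part of this in the Gapdh result was not tested.

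Promoter stretches of Bnip3, Pgk1, Ldha and Fam162a are shown because these genes rose and carry ACGTG within 250 bases before their RefSeq start. ACGTG was the only form of the HIF core searched for, so any other form stays in lower case. Capitals mark ACGTG on either strand. CACGTG is its own reverse complement and counts on both. The stretches lie in GRCm38.p6 at chr7:138909597-138909626 (minus strand) for Bnip3, chrX:106186938-106186985 (plus) for Pgk1, chr7:46845744-46845786 (plus, 3 of its 5 matches) for Ldha and chr16:36071626-36071654 (minus) for Fam162a.
Bnip3: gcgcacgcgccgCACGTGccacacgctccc
Pgk1: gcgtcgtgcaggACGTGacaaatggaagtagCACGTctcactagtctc
Ldha: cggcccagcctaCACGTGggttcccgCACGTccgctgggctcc
Fam162a: ccgctcgtcgcgCACGTcccgcacgcccg
ACGTG was present in 10 of the 17 hypoxia genes that rose and had a window (58.8%) and in 7 of the 15 that did not pass (46.7%). It was present in 24.6% of all tested genes with a window, in 31.9% of the DEGs higher in Gel/IL-12 and in 16.9% of those lower. A match describes the letters and is not a measured binding site.

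Ribosomal protein genes formed the most numerous group. Of 76 genes of cytosolic ribosomal proteins, 48 rose and 0 fell (63.2%, against 1.8% of all genes). The median log2 fold change was 0.13, and the 48 rose by 1.06-fold to 1.16-fold. Rplp1, a protein of the ribosomal stalk, was at 877, 868 and 872 CPM in Gel and 973, 973 and 971 CPM in Gel/IL-12 (0.16, SE 0.0232, adjusted p 2.28e-06). The libraries of each group lay close together and did not overlap. Rpl27a, at 669, 638 and 650 CPM in Gel and 750, 723 and 736 CPM in Gel/IL-12, rose by 0.17 (adjusted p 1.92e-07), Rpl11 by 0.19 (adjusted p 6.68e-07) and Fau, a fusion of a ubiquitin-like protein with a small subunit protein, by 0.16 (adjusted p 3.05e-06). Ribosomal protein genes took 3.78 to 3.82% of all counts in Gel and 4.08 to 4.17% in Gel/IL-12. These genes have many processed pseudogenes, and only 40.0% of the 50-base windows of Rplp1 occur in no other gene. Without Gel replicate 3 or without Gel/IL-12 replicate 1, 30 of these genes passed.

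The mitochondrial respiratory chain moved less. Of 67 nuclear genes of oxidative phosphorylation 7 rose and 0 fell (10.4%, against 1.8% of all genes, median 0.08). Among those that rose were Cox7c (0.23, adjusted p 0.000925) and Cox4i1 (0.11, adjusted p 0.00987) of cytochrome c oxidase, Ndufb11 (0.18, adjusted p 0.0181) of complex I, and Uqcr11 (0.23, adjusted p 0.0268) of complex III. Of the 13 genes encoded by mitochondrial DNA 4 rose and 0 fell (30.8%, against 1.8% of all genes). The complex I gene mt-Nd4 was at 1518, 1568 and 1529 CPM in Gel and 1650, 1683 and 1635 CPM in Gel/IL-12 (0.11, adjusted p 0.000198), mt-Nd6 rose by 0.16, mt-Nd5 by 0.09 and mt-Cytb by 0.08. Of the nuclear genes, 2 passed without Gel replicate 2, 1 without Gel replicate 3 and 3 without Gel/IL-12 replicate 1 or 2. Mitochondrial counts made up 2.9 to 2.95% in Gel and 2.96 to 3.06% in Gel/IL-12.

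Transcript length moved with these results. The DEGs higher in Gel/IL-12 had a median transcript length of 1713 bases and those lower 5902, against 3574 for all genes of at least 10 CPM, while the median GC content was 50.5%, 51.1% and 49.4%. With GC content and length as an offset in the fit, 30 ribosomal protein genes, 0 nuclear and 0 mitochondrially encoded genes of the respiratory chain and 3 chemokines passed, beside 6 acute-phase, 20 hypoxia and 12 interferon genes. The mt-Cytb log2 fold change became 0.00 under that offset. Over all genes 33 were lower with the offset, in place of 74. The part of transcript length in the ribosomal and respiratory differences and in the lower genes was not tested beyond this offset. Ribosomal RNA made up 0.0629 to 0.0664% of counts in Gel and 0.0688 to 0.0711% in Gel/IL-12.

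**Figure D3:**
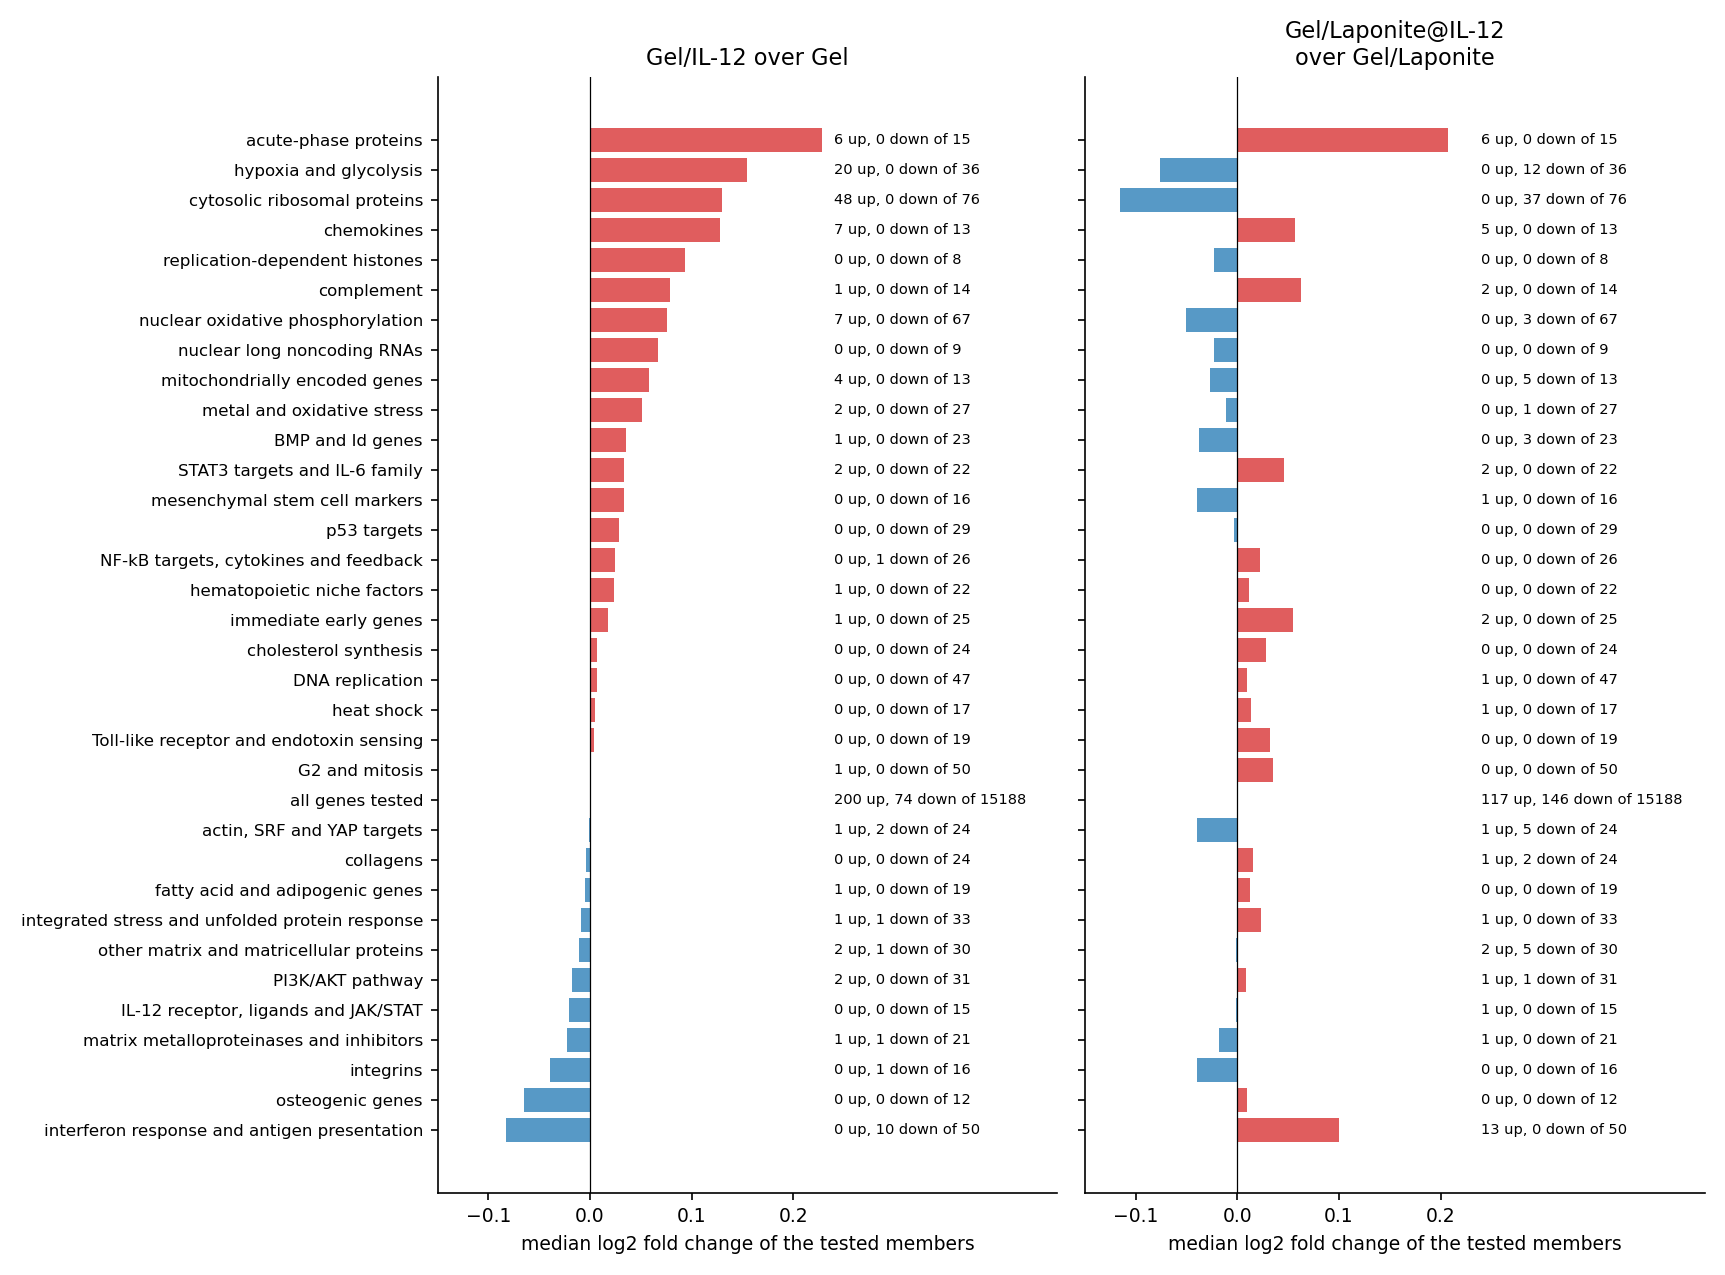
Median log2 fold change (horizontal bars) of each gene list with at least 8 tested members, in Gel/IL-12 over Gel on the left and in Gel/Laponite@IL-12 over Gel/Laponite on the right, with the number of members that passed in each direction printed beside the bar. The acute-phase list points up in both panels, while the bars of the hypoxia, ribosomal and interferon lists point in opposite directions.

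Some interferon-induced genes were lower with IL-12 in this gel, while most of the list did not pass. Of 50 genes of the interferon response and antigen presentation tested, 10 fell and 0 rose (20.0%, against 1.8% of all genes). The median log2 fold change of the list was -0.08, and the 10 fell by 1.07-fold to 1.29-fold. Mx1 (chr16:97447035-97462907, minus strand) is annotated as a polymorphic pseudogene, so only its transcript level is described. It was at 37.7, 41.2 and 40.0 CPM in Gel and 30.5, 31.2 and 30.1 CPM in Gel/IL-12. All Gel/IL-12 libraries lay below all Gel libraries, by -0.37 log2 units (SE 0.0605, adjusted p 9.68e-06). Rsad2, which makes a chain-terminating nucleotide against viral polymerases, was at 92.7, 95.0 and 90.3 CPM in Gel and 77.7, 77.2 and 81.9 CPM in Gel/IL-12 (-0.23, adjusted p 5.1e-05). Ifit3, of a family that restricts viral RNA, was at 241, 251 and 249.6 CPM in Gel and 216, 225 and 218 CPM in Gel/IL-12 (-0.17, adjusted p 3.13e-05), and the related Ifit1 fell by 0.11 (adjusted p 0.00877). Ifit3 and Ifit3b, which fell by 0.23, share sequence, and only 48.8% of the 50-base windows of Ifit3 and 55.0% of those of Ifit3b occur in no other gene. The immunity-related GTPase gene Irgm1 fell by 0.14 (adjusted p 0.00254) and its relative Iigp1 by 0.17 (adjusted p 0.00628). The partners Dtx3l and Parp14 of ADP-ribosylation fell by 0.22 (adjusted p 0.00565) and 0.18 (adjusted p 0.0106), and Slfn8 of the Schlafen family by 0.18 (adjusted p 0.000913). Ifit3b and Slfn8 were not in the list and are not counted in it, and 2 of its 10 lower genes, Ifi44 and Oasl2, fell by 0.12 and 0.09. For all 10 genes of the list that fell, the mean in IR-Con was above that in Gel, for Mx1 at 56.5 CPM and for Rsad2 at 109.6 CPM. Leaving out Gel replicate 1 or 2, or Gel/IL-12 replicate 1 or 3, gave 6 interferon genes lower. Of the hypoxia genes, 19 to 21 rose without each library in turn.

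The promoters of Ifit3, Ifit1, Rsad2 and Irgm1 are shown because these genes fell and hold the ISRE core, GAAA and GAAA with 2 bases of any kind between them, on either strand before their start. The core reads TTTC on the opposite strand. Capitals mark the matches, which overlap by 4 bases in Irgm1. In GRCm38.p6 the stretches are chr19:34583361-34583428 (plus strand) for Ifit3, chr19:34640773-34640825 (plus) for Ifit1, chr12:26456551-26456584 (minus) for Rsad2 and chr11:48871423-48871462 (minus) for Irgm1.
Ifit3: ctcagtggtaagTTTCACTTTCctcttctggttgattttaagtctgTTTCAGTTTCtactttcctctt
Ifit1: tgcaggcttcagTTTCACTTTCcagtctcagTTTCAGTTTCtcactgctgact
Rsad2: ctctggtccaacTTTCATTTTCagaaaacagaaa
Irgm1: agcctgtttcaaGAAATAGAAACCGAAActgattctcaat
The ISRE core was present in 4 of the 7 genes of the list that fell and had a window (57.1%) and in 13 of the 32 that did not pass (40.6%), against 3.23% of all tested genes with a window. Among all DEGs with a window it was present in 9 of the 59 that were lower (15.3%) and in 4.44% of those that were higher.

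Other lower genes had varied functions. Inhbb, the beta B subunit of activin and inhibin, was at 74.2, 76.0 and 81.9 CPM in Gel and 64.1, 63.1 and 67.8 CPM in Gel/IL-12 (-0.25, adjusted p 7.48e-05). Smoc2, a calcium-binding matricellular protein, was at 45.9, 45.4 and 46.5 CPM in Gel and 39.5, 41.5 and 36.5 CPM in Gel/IL-12 (-0.23, adjusted p 0.00949), both far below the 245 CPM of IR-Con. Thbs2, which encodes thrombospondin 2, was at 7166, 7119 and 7225 CPM in Gel and 6820, 6903 and 6905 CPM in Gel/IL-12, a difference of only -0.06 that passed at this level (adjusted p 0.00837). Of 24 actin, SRF and YAP targets 12.5% passed, against 1.8% of all genes. Of these 2 fell, the nonmuscle myosin gene Myh9 by 0.08 (adjusted p 0.0156) and the filamin gene Flna by 0.07 (adjusted p 0.0223), and 1 rose, Ctgf by 0.14 (adjusted p 0.00631). The integrin chain Itga3 fell by 0.11 (adjusted p 0.0268), the myosin light chain kinase gene Mylk by 0.34 (adjusted p 0.0479) and the LIM domain gene Lmo7 by 0.19 (adjusted p 0.00185). Naa40, which acetylates histones H4 and H2A, fell by 0.26 (adjusted p 0.00709), the ribosome biogenesis gene Rrp12 by 0.24 (adjusted p 0.0381), the histone methyltransferase gene Setd1a by 0.22 (adjusted p 0.044), the centrosomal gene Cep350 by 0.21 (adjusted p 0.0318), the matrix gene Sned1 by 0.18 (adjusted p 0.0156) and the matrix gene Egfl6 by 0.54 (adjusted p 0.019), the last below 10 CPM.

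Among further genes that rose, the matrix proteoglycan gene Dcn was at 210, 208 and 207 CPM in Gel and 255, 260 and 230 CPM in Gel/IL-12 (0.26, adjusted p 7.96e-09). The metallothionein gene Mt1, which binds zinc and copper, was at 224, 222 and 222 CPM in Gel and 261, 265 and 256 CPM in Gel/IL-12 (0.23, adjusted p 2.48e-08), and the heme oxygenase gene Hmox1 rose by 0.09 (adjusted p 0.0284). They were the only 2 of 27 genes of metal and oxidative stress to pass (7.41%, against 1.8% of all genes). Serpinb1a, an inhibitor of neutrophil proteases, rose by 0.27 with an adjusted p of 0.0496. It missed the threshold in 16 of the alternative fits described below and Hmox1 in 10, while Dcn and Mt1 missed it in 2.

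Niche factors, cell cycle genes and the PI3K/AKT pathway were followed by the study. Of 22 hematopoietic niche factors Cxcl12 passed (4.55%, against 1.8% of all genes), while Kitl, the ligand of c-Kit, was at 70.3, 69.7 and 64.6 CPM in Gel and 68.9, 71.2 and 66.4 CPM in Gel/IL-12 (0.01, SE 0.0457, adjusted p 0.958), and Angpt1 (-0.03, adjusted p 0.971) and Slit2 (0.03, adjusted p 0.757) overlapped as well. Of 47 DNA replication genes and 29 p53 targets 0 passed, and of 50 genes of G2 and mitosis 1 rose (2.0%), the centromeric histone gene Cenpa by 0.16 (adjusted p 0.0381), shares near that of all genes. The replication clamp gene Pcna was at 159.6, 149 and 155 CPM in Gel and 172, 165 and 164 CPM in Gel/IL-12 (0.11, adjusted p 0.0638). The cyclin-dependent kinase gene Cdk4 was at 365, 368 and 359 CPM in Gel and 376, 369.8 and 368 CPM in Gel/IL-12 (0.03, adjusted p 0.769). Of 24 collagens and 12 osteogenic genes 0 passed. Of 31 genes listed for the PI3K/AKT pathway 2 rose (6.45%, against 1.8% of all genes): Eif4ebp1, a translation inhibitor downstream of mTOR, by 0.13 (adjusted p 0.0124) and Pdk1. The symbol Pdk1 in mouse stands for the pyruvate dehydrogenase kinase and not for the AKT kinase PDPK1. The 6.45% therefore includes a gene from outside the pathway, and only Eif4ebp1 rose within it. Stat3 was at 294, 296 and 300 CPM in Gel and 287, 288 and 294 CPM in Gel/IL-12 (-0.03, adjusted p 0.706).

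The same addition of IL-12 was measured in separate libraries in gels with Laponite, where Gel/Laponite@IL-12 over Gel/Laponite gave 263 DEGs (1.73%), 117 higher and 146 lower. Of the 200 genes higher in Gel/IL-12, 12 were also higher there (0.77% of all genes tested were), 73 were lower (0.961%) and 115 did not pass, and the median log2 fold change of the 200 was 0.14 without Laponite and -0.08 with it. Of the 74 genes lower in Gel/IL-12, 1 was also lower there, 19 were higher and 54 did not pass, with medians of -0.13 and 0.06. Thus 13 genes, 4.74% of the 274 and 4.94% of the 263, passed in the same direction, and 92, 33.6% and 35.0%, in opposite directions. Whether or not they passed with Laponite, 17.2% of the 274 DEGs had the same sign in both comparisons. Over all genes tested the share was 42.7%, so opposite signs were the more frequent outcome there too. The test of the difference itself, an interaction of IL-12 and Laponite, gave 562 genes (3.7%), 348 with a higher (2.29%) and 214 with a lower (1.41%) IL-12 effect without Laponite, and 207 of the 274 DEGs were among them, a count favoured by their selection, since the interaction contains the difference that chose them.

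The genes that passed in the same direction with and without Laponite were mostly acute-phase genes and chemokines: Saa3, Lcn2, Ptx3, C3, Cxcl1, Cxcl5, Ccl2, Ccl7, the transcription factor gene Cebpd, the ion channel genes Tmem176a and Tmem176b, the CTP synthase gene Ctps and, in the lower direction, Smoc2. Saa3 was at 336, 336 and 344 CPM in Gel/Laponite and 448, 483 and 413 CPM in Gel/Laponite@IL-12, a log2 fold change of 0.40 (adjusted p 0.0147), and the interaction did not pass (0.18, adjusted p 0.40). The Gel/Laponite libraries thus lay within the range of Gel/IL-12 before IL-12 was added. Lcn2 rose by 0.36 with Laponite (adjusted p 1.67e-12), and here the difference of the effects was 0.20 (adjusted p 0.00701). Steap4 passed only with Laponite, where it rose from 92.6, 103 and 97.4 to 128, 130 and 128 CPM (0.40, adjusted p 2.32e-09, interaction -0.27, adjusted p 0.00358). Cxcl12 did not pass with Laponite (0.04, adjusted p 0.431), and its interaction did not pass either (0.07, adjusted p 0.252).

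**Figure D4:**
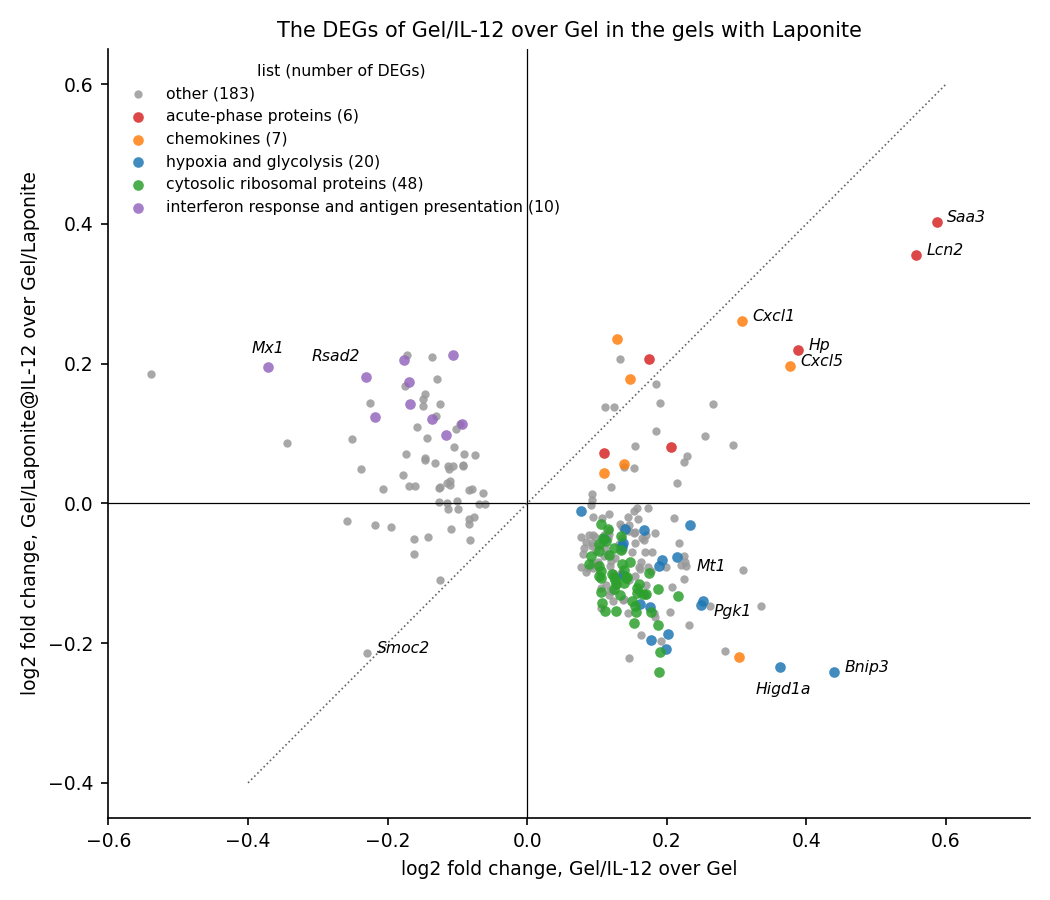
Log2 fold change of IL-12 with Laponite (vertical axis, Gel/Laponite@IL-12 over Gel/Laponite) against that without Laponite (horizontal axis, Gel/IL-12 over Gel) for the DEGs of the latter, coloured by gene list, with a dotted line where both would be equal. Ribosomal, hypoxia and interferon genes lie in the quadrants of opposite sign, acute-phase genes and all chemokines but Ccl9 in the upper right; Slc25a18 and Mfsd4b3 lie outside the drawn range.

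For the hypoxia genes the direction was opposite. With Laponite 0 of the 36 rose and 12 fell (33.3%, against 1.73% of all genes). By the interaction test 21 had a higher IL-12 effect without Laponite (58.3%, against 3.7% of all genes). Bnip3 was at 173, 174 and 176 CPM in Gel/Laponite and 143, 148 and 151 CPM in Gel/Laponite@IL-12 (-0.24, adjusted p 2.02e-07), so that both gels with IL-12 lay between Gel and Gel/Laponite, and the interaction was 0.68 (adjusted p 9.38e-21). Pgk1 was at 1721, 1723 and 1700 CPM in Gel/Laponite and 1501, 1577 and 1591 CPM in Gel/Laponite@IL-12 (interaction 0.39, adjusted p 1.42e-20). All 20 hypoxia genes that rose in Gel/IL-12 had their lowest mean of the 4 gels in Gel and their highest in Gel/Laponite, and 19 had a mean in IR-Con below that in Gel. Their selection as lower in Gel than in Gel/IL-12 favours the lowest mean in Gel. For Bnip3 the IR-Con mean was 69.9 CPM.

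The ribosomal and interferon genes followed the same reversal. Of the 76 ribosomal protein genes 0 rose and 37 fell with Laponite (48.7%, against 1.73% of all genes). The interaction test was passed by 58 of them (76.3%, against 3.7% of all genes). Rplp1 was at 968, 946 and 914 CPM in Gel/Laponite and 847, 885 and 807 CPM in Gel/Laponite@IL-12 (-0.16, adjusted p 4.54e-06). The share of counts from these genes was 4 to 4.16% in Gel/Laponite and 3.72 to 3.89% in Gel/Laponite@IL-12. This share sums the counts of the same genes and is not a separate measure. Of the 50 interferon genes 13 rose and 0 fell with Laponite, and 20 had a lower IL-12 effect without Laponite and 2 a higher one. Mx1 was at 38.4, 35.8 and 38.6 CPM in Gel/Laponite and 44.6, 43.5 and 41.0 CPM in Gel/Laponite@IL-12 (0.19, adjusted p 0.0664, interaction -0.57, adjusted p 4.87e-07), and Rsad2 rose by 0.18 (adjusted p 0.00308). All 10 interferon genes that fell in Gel/IL-12 had their lowest mean of the 4 gels there and their highest in Gel/Laponite@IL-12. Their selection as lower in Gel/IL-12 than in Gel favours the lowest mean there.

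**Figure D5:**
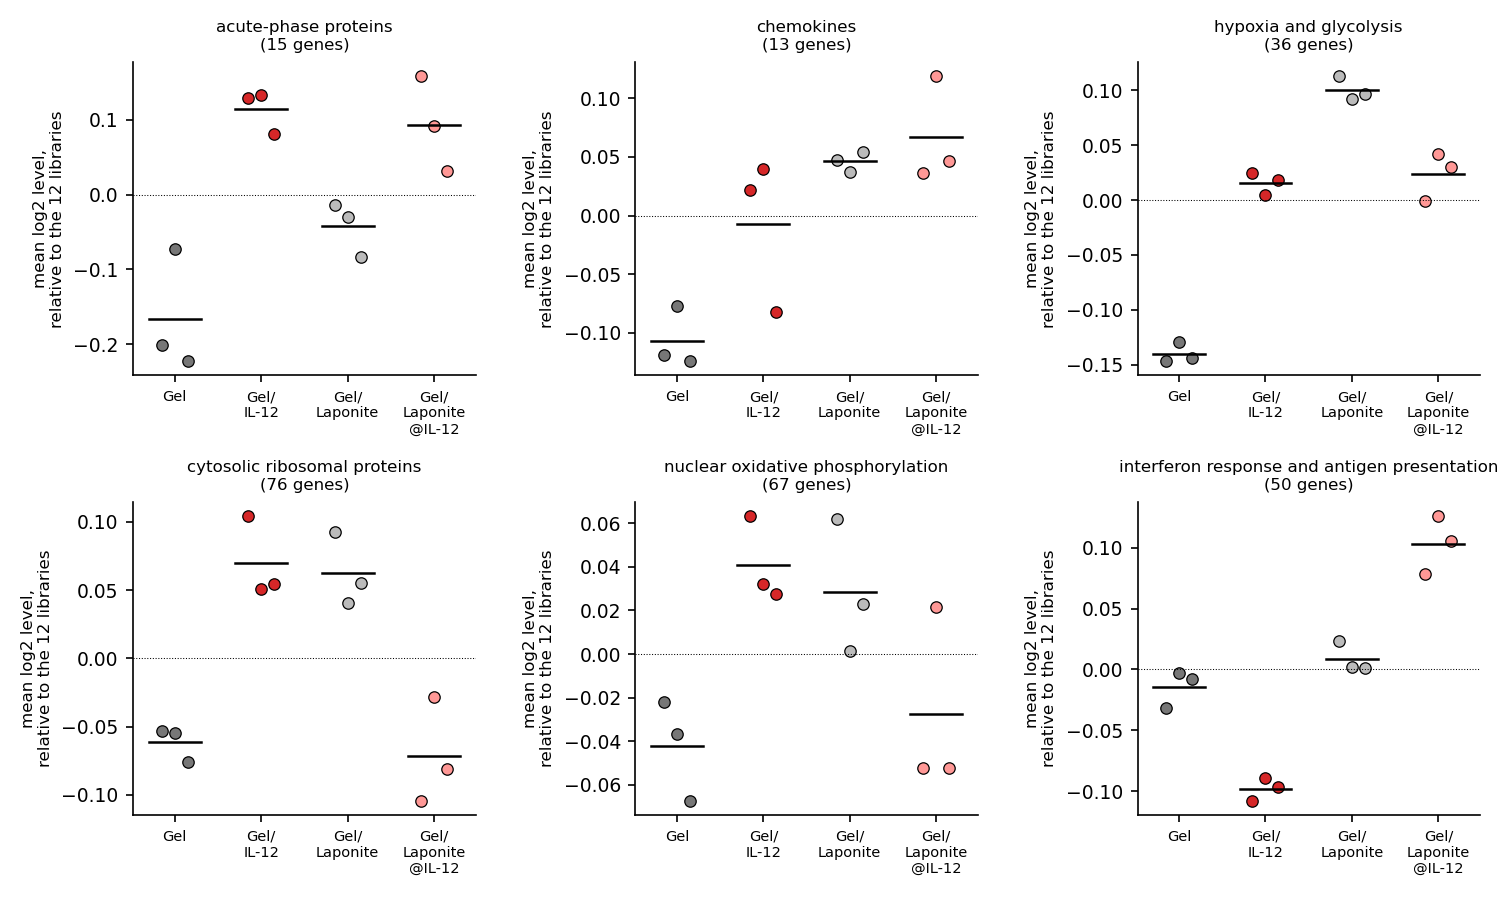
Mean log2 level of 6 gene lists, relative to the mean of the 12 gel libraries (vertical axis), in the 4 gels (horizontal axis), with a point for each library and a line at the group mean. All Gel/IL-12 points lie above all Gel points in the acute-phase, hypoxia, ribosomal and oxidative phosphorylation panels and below them in the interferon panel, while 1 Gel/IL-12 library overlaps Gel in the chemokine panel.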

How the data were processed

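RNA-seq libraries of irradiated C57BL/6 BM-MSCs, 3 per group, were analysed. Whole-number read counts for each gene, as deposited by the authors, were the input; aligner, counter and strand setting are not given in the sources used here, and the submitters' processing notes name mm10. The same table holds 15 FPKM columns and the authors' group means, fold changes and p-values, which were not used. Of 54495 identifiers shared with the annotation, only 1488 had the same start in the table, so positions are from GENCODE M21 (GRCm38).

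Genes were filtered with filterByExpr (minimum count 10, minimum total 15) and scaled by TMM. The 12 gel libraries were fitted with a mean per group by edgeR 4.0.16 (R 4.3.3, glmQLFit, robust, its default older fit), and p-values were adjusted by Benjamini-Hochberg over all genes tested. The fit and its calls were tested on simulated data. Members, gene lists and tests were chosen with earlier results of these data known. Gene lists were described by counts and medians, beside all genes, with no set test.

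Named genes were taken from the DEGs of at least 10 CPM whose libraries did not overlap (the 15 highest and 15 lowest fold changes), the 10 with the smallest adjusted p, up to 5 members of each list, the IL-12 receptor list and the study's niche and cell cycle genes; the last group and the lists are named in part. Steap4, Slc39a14, Ccl5, Ccl9, Tmem176a, Tmem176b, Ctps, Slc2a1, Egln1, Aldoa, Ifit1, Iigp1, Egfl6, Slc25a18, Mfsd4b3, Gapdh, Ifi44, Oasl2, Trim59, Flnc and Gda were named after their values were seen. Promoters (250 bases before the start) are from RefSeq (GRCm38.p6), and 10520 of the 15186 symbols tested matched. Read sharing was taken as the percentage of 50-base transcript windows found in no other gene. Alternatives were DESeq2 1.42.0, limma 3.58.1 voom, other scaling, filters, offsets and library sets, the replicate block, and each library left out.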

Additional observations from a re-analysis of the deposited data

Results flagged for a closer look

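The effect of IL-12 differed between gels without and with Laponite by the interaction test of the edgeR fit for 562 genes. The values below are log2 fold changes without Laponite minus those with it, for the genes described above whose interaction passed, each from 3 libraries per group; no cause was tested. Among hypoxia genes and genes named with them the difference was 0.68 for Bnip3, 0.60 for Higd1a, 0.49 for Ak4, 0.48 for Ndufa4l2, 0.41 for Fam162a, 0.40 for Apln, 0.39 for Pgk1 and for Pdk1, 0.32 for Egln1, 0.31 for Slc2a1, 0.29 for Ldha, 0.28 for Tpi1, 0.27 for Pfkl, 0.21 for Angptl4 and 0.19 for Aldoa. Among ribosomal protein genes it was 0.31 for Rpl11 and Rplp1, 0.28 for Fau and 0.27 for Rpl27a. In the respiratory chain it was 0.41 for Cox7c, 0.35 for Ndufb11 and mt-Nd6, 0.32 for Uqcr11, 0.26 for mt-Nd4, 0.18 for Cox4i1 and mt-Nd5 and 0.17 for mt-Cytb.

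Interferon-induced genes differed the other way, by -0.57 for Mx1, -0.41 for Rsad2, -0.38 for Parp14, -0.37 for Ifit3b, -0.34 for Ifit3, Dtx3l and Slfn8, -0.32 for Ifit1, -0.31 for Iigp1, -0.26 for Irgm1 and -0.21 for Ifi44 and Oasl2. Of the acute-phase genes and chemokines, Ccl9 differed by 0.52, Lcn2 by 0.20 and Steap4 by -0.27. The remaining genes were Mt1 (0.33), Ctgf (0.28), Dcn (0.16), Timp1 (0.16), Hmox1 (0.15), Eif4ebp1 (0.23), Pcna (0.16), Itga3 (-0.16), Sned1 (-0.22), Inhbb (-0.34) and Egfl6 (-0.72).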

How the results depend on the processing

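The number of DEGs in Gel/IL-12 over Gel was 274 (200 higher, 74 lower) and changed with the libraries fitted, the test and the offset: 433 with the 6 libraries alone (139 lower, 273 of the 274 shared), 2 with all 15 libraries (2 higher, 0 lower), 174 without robust estimation (33 lower), 2 against a minimum of 1.2-fold (glmTreat, 2 higher, 0 lower, Lcn2 and Bnip3), 156 with a GC and length offset (123 higher, 33 lower, 137 shared) and 49 lower without a count filter. Leaving out each of the 12 gel libraries gave 135 to 296 DEGs (109 to 216 higher, 26 to 86 lower). Of the 82 DEGs named with a fold change and followed across settings, 43 passed without each library in turn and 54 with the offset. The count stayed within 1.5 times under DESeq2 (295; its filter left 4293 genes with an adjusted p), voom (276), RLE scaling (266), no count filter (257), a minimum of 10 CPM (325) and edgeR's newer fit, added after seeing the data (247). The planned older fit is the installed default and was not run separately. Gel/Laponite@IL-12 over Gel/Laponite gave 121 to 344 DEGs without each library (56 to 135 higher, 65 to 209 lower), 1 with all 15 libraries (1 higher, 0 lower) and 0 against 1.2-fold (0 and 0). The interaction gave 375 to 666 (241 to 398 higher, 134 to 268 lower), 0 with all 15 (0 and 0), 3 against 1.2-fold (3 higher, 0 lower) and 298 with the offset (204 higher, 94 lower).

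Replicate numbers did not pair the libraries (same-number correlations -0.164 to 0.109). The replicate block gave 269 DEGs, and with the GC and length offset 155 (123 higher, 32 lower), with an interaction count of 294 (200 higher, 94 lower). Single fold changes that changed sign were mt-Cytb (0.00 with the offset, with or without the block), Il12rb1 (-0.16 to 0.19, negative without Gel replicate 3 and Gel/IL-12 replicates 1 and 2), Kitl (-0.03 to 0.04, negative without Gel replicate 3 and Gel/IL-12 replicate 2), Angpt1 (-0.08 to 0.06, positive without Gel/IL-12 replicate 3) and Il6st (-0.01 to 0.02, negative without Gel/IL-12 replicate 3). For these the cause was not tested. Depth limits genes under 2 CPM, such as Slc25a18.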
